A study of Mus musculus with 19 samples.

Results

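The genes described here are 10 genes of major histocompatibility complex (MHC) class I antigen presentation, measured on one-colour Agilent arrays as part of 27425 gene names. They were chosen by function with the group levels on these same arrays already known, so their differences between groups, and any count of them past a threshold, are given as a description and not as a test. All probes carrying one of the 10 gene names in the scanner files were taken, which gave 18 probes, between 1 and 4 for a gene. To examine how these genes differed in muscle cells carrying extra class IIa histone deacetylases and in diabetic muscle, 19 arrays in 4 groups were compared. The control C2C12 group (6 arrays) held mouse C2C12 cells, a myoblast line, that were stably transfected with empty plasmids, and the HDAC4 and 5 C2C12 group (6 arrays) held C2C12 cells that were transfected with plasmids for human wild-type HDAC4 and human wild-type HDAC5. Both were kept under Hygromycin B and Geneticin, each at 500 µg/mL, and were collected 48 h after seeding. The control soleus group (3 arrays) held soleus muscle of male heterozygous db -/+ littermates and the db/db soleus group (4 arrays) soleus of male db/db mice (labelled db +/+), in which a mutation of the leptin receptor gene leads to obesity and diabetes, all 12 weeks old and fasted for 5 h. The methods call data points separate mice or culture dishes in general but give 3 replicates a group for the array experiment, and no label ties C2C12 arrays to dishes. Arrays of a group may therefore share a dish, and p-values over 6 arrays then measure in part a technical spread and are too small. The labels also do not say whether a group held more than a single stably transfected line, so line and plasmid cannot be told apart.

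MHC class I molecules carry short peptides from inside the cell to its surface, where CD8 T cells read them. Proteasomes cut proteins into peptides, and in cells exposed to interferons the catalytic subunits PSMB5, PSMB6 and PSMB7 are replaced by PSMB8, PSMB9 and PSMB10, which form the immunoproteasome. The PA28 activator of PSME1 and PSME2 opens the proteasome, the TAP1-TAP2 transporter moves peptides into the endoplasmic reticulum, and tapasin (TAPBP) holds the empty class I molecule at the transporter. That molecule is a heavy chain, of which H2-K1 is one, bound to the light chain beta-2-microglobulin (B2M). Skeletal muscle fibres express little class I in health, and their surface class I is known to increase in inflamed muscle.

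All values are log2 intensities relative to the 75th percentile of the same array, so a value of 0 lies at that percentile and a difference of 1 is a doubling. The percentile ran from 564 to 1691 intensity units in control C2C12, from 494 to 873 in HDAC4 and 5 C2C12, from 153 to 555 in control soleus and from 180 to 686 in db/db soleus. The number of arrays limits the precision, and the soleus arrays varied more: the SD of a member within a group had a median of 0.18 in control C2C12, 0.12 in HDAC4 and 5 C2C12, 0.54 in control soleus and 0.80 in db/db soleus. The C2C12 arrays lay on 3 slides and the soleus arrays on 2, each slide with both groups and scanned at one time. Where a gene has several probes, the one with the highest mean over all arrays stands for it, and the others are given beside it. A probe is called well above background where the scanner software marked it so. Standard errors come from a limma fit over every probe, and adjusted p-values from the limma fit over the genes that passed the filter on dim probes.

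The labels were checked first. The mouse Hdac5 probe read 2.19 ± 0.38 (SD, n = 6) in control and 3.60 ± 0.62 in HDAC4 and 5 C2C12, with no overlap (limma adjusted p = 0.000388). The mouse Hdac4 probe read 0.28 ± 0.06 and 0.23 ± 0.06 (limma adjusted p = 0.347). The plasmids carried human cDNAs, so a mouse probe reads them only as far as the sequences match, and the Hdac4 probe gives no check of its label. The cell type was checked against 6 myoblast markers, and of these Myf5 and Pax7 stayed at background on all C2C12 arrays. Myog, Myod1 and Des, the muscle transcription factors and the muscle intermediate filament, fell in the HDAC4 and 5 group: Myog by 9.65, Des by 8.45, and Myod1 to below background, at least 260-fold lower (limma, adjusted p = 9.0e-15, 3.2e-13 and 2.6e-14). The sum of the 6 markers, in multiples of the 75th percentile, was 82.0 to 196 in control and 1.35 to 1.58 in HDAC4 and 5 C2C12. The library labels call both groups C2C12 myoblasts, and the 4 markers measured in control all fell in the HDAC4 and 5 group. Of 7 genes of slow muscle fibres, 6 also fell and Myh7, a slow myosin heavy chain, rose by 1.44 ± 0.10. Among the 7, Ckm and Acta1 are not confined to slow fibres. Of the troponins, Tnni1 was at least 273-fold lower and Tnnt1 fell by 8.57, and the myosin light chain Myl3 was at least 119-fold lower at its brightest probe, while its other probe gave 0.73.

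The stretches of DNA before 4 of the 10 genes are shown because they hold the letter patterns that class I genes are known for. The windows come from RefSeq, on the GRCm38.p6 build, from 250 bases before to 50 after the start of transcription, and 9 of the 10 genes had an entry; Tap2 did not. Capitals mark matches, on either strand, to the core of the interferon-stimulated response element (GAAA and GAAA parted by any 2 bases), the gamma-activated site (TTCNNNGAA), the NF-kB consensus and the core letters of the cyclic AMP response element (TGACG). The Tap1 window at chr17:34187306-34187605 is read on the plus strand, and the Psmb9 window shares 275 bases with it on the other strand, with 226 bases between the starts of the 2 genes. The B2m window is chr2:122147437-122147736 on the plus strand, the H2-K1 window chr17:34000298-34000597 on the minus strand and the Psmb8 window chr17:34197945-34198244 on the plus strand.
B2m: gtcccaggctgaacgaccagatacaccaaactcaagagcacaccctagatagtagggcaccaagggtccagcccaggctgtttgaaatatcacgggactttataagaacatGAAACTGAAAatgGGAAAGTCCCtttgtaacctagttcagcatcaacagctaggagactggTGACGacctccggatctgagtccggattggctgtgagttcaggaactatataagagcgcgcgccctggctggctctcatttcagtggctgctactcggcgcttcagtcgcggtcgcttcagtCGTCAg
H2-K1: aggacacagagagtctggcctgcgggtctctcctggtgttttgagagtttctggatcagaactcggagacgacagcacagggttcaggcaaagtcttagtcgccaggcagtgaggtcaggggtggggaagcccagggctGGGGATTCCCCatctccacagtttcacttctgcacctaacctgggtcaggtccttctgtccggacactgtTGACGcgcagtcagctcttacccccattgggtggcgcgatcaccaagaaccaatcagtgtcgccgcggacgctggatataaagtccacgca
Psmb8: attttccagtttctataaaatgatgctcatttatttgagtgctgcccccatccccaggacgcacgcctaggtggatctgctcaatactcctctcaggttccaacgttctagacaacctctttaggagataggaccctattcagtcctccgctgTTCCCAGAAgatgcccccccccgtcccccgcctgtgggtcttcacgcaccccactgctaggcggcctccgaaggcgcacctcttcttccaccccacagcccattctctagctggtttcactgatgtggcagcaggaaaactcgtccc
Tap1: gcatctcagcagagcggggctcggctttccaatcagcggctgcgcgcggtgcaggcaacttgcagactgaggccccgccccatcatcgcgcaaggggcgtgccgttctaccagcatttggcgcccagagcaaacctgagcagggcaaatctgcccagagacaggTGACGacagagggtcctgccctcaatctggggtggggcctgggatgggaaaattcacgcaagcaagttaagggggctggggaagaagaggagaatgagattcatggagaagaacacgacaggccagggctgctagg

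The B2m window held the response element core 139 bases before the start, followed by an NF-kB match at 126 bases and a TGACG at 78. H2-K1 held an NF-kB match 111 bases before the start on the first of its 2 listed starts, overlapping a second match shifted by 1 base, and a TGACG at 41. Psmb8 held a gamma-activated site 97 bases before the start, and Tap1 a TGACG at 86. Among the 9 members with an entry, 2 held the response element core (B2m and, past its start, Psme1) and 1 the gamma-activated site (Psmb8). The NF-kB match was held by 2 (B2m and H2-K1) and a TGACG by 5. The TGACG of Psmb9 and that of Tap1 are the same bases of the stretch their windows share. Of all 32851 windows of this length, 3.44% held the response element core, 8.3% the gamma-activated site, 5.8% the NF-kB match and 20.8% a TGACG. A match is a string of letters in these windows and was not tied to binding or to the array values. Only these exact patterns were searched, so a window without a match may still hold a variant of the element.

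In C2C12 cells, all 10 genes were higher with HDAC4 and 5, and for each of the 18 probes every HDAC4 and 5 array lay above every control array. Among all 13964 genes tested in C2C12 cells, 28.2% had no overlap in that direction, 36.5% passed an adjusted p of 0.05 with a higher mean and 32.8% with a lower one. All 10 genes are among those past it with a higher mean, a count that follows from how they were chosen, and Psmb8 and Tap1 entered the fit only through the group where they are high. Their median difference was 2.82, against 0.05 for all genes tested. The differences ran from 0.94 for Psme2 to 9.78 for Psmb8. The plot of all arrays shows that the spread of the HDAC4 and 5 arrays was narrow next to these distances.

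**Figure D1:**
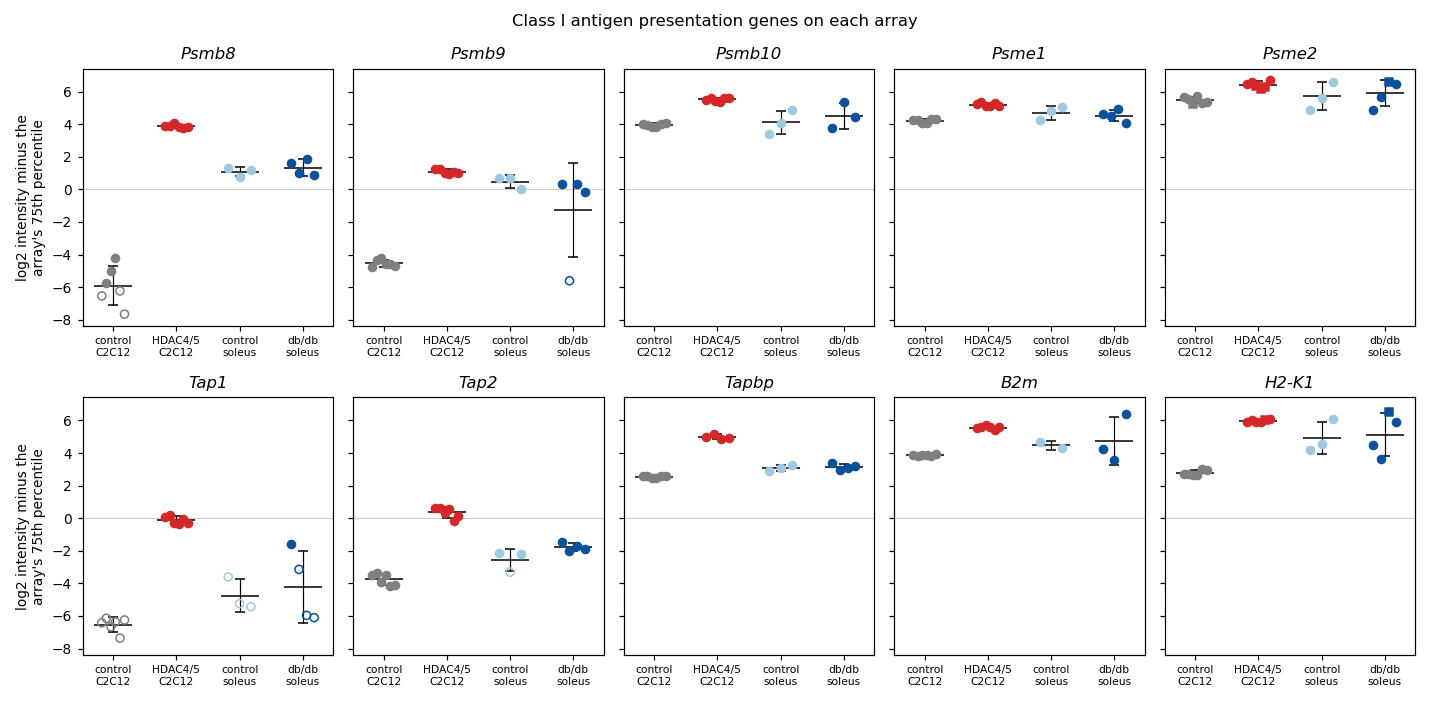
Log2 intensity minus the array's 75th percentile (vertical axis) of the 10 genes, by the brightest probe of each, on every array of the 4 groups (horizontal axis). Filled points are well above background, open points are not, squares have a saturated spot, and lines and bars give the mean and SD. The HDAC4 and 5 C2C12 arrays lie above all control C2C12 arrays in each panel, from a mean of -5.91 to 3.87 for Psmb8, while the 2 soleus groups overlap for 9 genes.

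Psmb8, the immunoproteasome subunit that takes the place of PSMB5, ranged from -7.66 to -4.22 on the control arrays (median -5.99) and from 3.76 to 4.04 on the HDAC4 and 5 arrays (median 3.86). It was well above background on 3 of the 6 control arrays and on all 6 others. The difference was 9.78 ± 0.46 (SE), about 877-fold between measured means, and the second probe gave 9.67 ± 0.34. Its size rests on control values near background, and with the normexp background correction it was 7.01. The probes span chr17:34337771-34338152 on mm9, the build of the scanner files.

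Psmb9, which takes the place of PSMB6, was measurable on every C2C12 array. It ranged from -4.80 to -4.24 in control (median -4.60) and from 0.95 to 1.26 with HDAC4 and 5 (median 1.04), a difference of 5.63 ± 0.11, or 49.6-fold, at chr17:34319174-34319233. With the normexp background correction it was 4.13. Psmb10, which takes the place of PSMB7, lay above the 75th percentile in control too, from 3.84 to 4.08 (median 3.98), and reached 5.37 to 5.63 (median 5.55), a difference of 1.56 ± 0.07, at chr8:108459677-108459736. The groups did not overlap for any of the 3 subunits, and their differences were of unlike size.

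The PA28 genes lie side by side on chromosome 14 and had the smallest differences of the 10. Psme1 ranged from 4.07 to 4.33 in control (median 4.26) and from 5.09 to 5.34 with HDAC4 and 5 (median 5.17), a difference of 0.98 ± 0.08, or 1.97-fold, at chr14:56200194-56200253. Psme2 ranged from 5.24 to 5.73 (median 5.48) and from 6.17 to 6.70 (median 6.41), a difference of 0.94 ± 0.12. Its brightest probe was saturated on 1 control array and 3 HDAC4 and 5 arrays, which limits how high it can read. The other Psme2 probe, with no saturated spot, read 4.65 ± 0.10 and 5.68 ± 0.16, a difference of 1.03 ± 0.08, or 2.04-fold.

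Tap1 and Tap2 encode the chains of the peptide transporter. Tap1 was not well above background on any control C2C12 array, where it read from -7.36 to -6.14 (median -6.40), and was well above background on all 6 HDAC4 and 5 arrays, from -0.33 to 0.21 (median -0.15). It was at least 48.5-fold higher with HDAC4 and 5, taking for each control array the higher of its own reading and the lowest signal among probes well above background. The measured means differed by 6.42 ± 0.19, and by 3.40 with the normexp background correction. Tap2 was measurable throughout, from -4.14 to -3.34 in control (median -3.71) and from -0.16 to 0.65 (median 0.43), a difference of 4.10 ± 0.18, or 17.2-fold, and of 3.15 with normexp. Neither gene had any overlap between groups, and both HDAC4 and 5 means lay near the 75th percentile. The Tap1 probe lies at chr17:34330854-34330913 and the Tap2 probe at chr17:34351722-34352309.

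Tapbp encodes tapasin, the chaperone that ties class I to the transporter. Its brighter probe ranged from 2.45 to 2.60 in control (median 2.59) and from 4.87 to 5.20 on the 4 HDAC4 and 5 arrays whose spot was not marked as an outlier (median 4.96). The difference was 2.45 ± 0.08, and the dimmer probe, measured on all 12 arrays, gave 2.21 ± 0.10. They lie at chr17:34066022-34066081 and chr17:34063096-34063155. B2m, the light chain of every class I molecule, ranged from 3.80 to 3.94 (median 3.88) and from 5.39 to 5.71 (median 5.58), a difference of 1.70 ± 0.06. Its other probes gave 1.72 ± 0.29 and 1.47 ± 0.12. The brightest lies at chr2:121978401-121978460.

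H2-K1, a classical heavy chain, ranged from 2.64 to 3.00 in control (median 2.72) and from 5.88 to 6.07 with HDAC4 and 5 (median 5.96). The difference was 3.19 ± 0.08, or 9.1-fold, and 1 HDAC4 and 5 array had at least 1 of its 10 spots saturated. The 4 H2-K1 probes did not give the same size. The probe named here, at chr17:34133055-34133114, is the mapped one nearest the 3′ end, and a probe without coordinates gave 3.31 ± 0.08. The others, at chr17:34136288-34136347 and chr17:34136478-34136724, gave 2.31 ± 0.10 and 2.11 ± 0.09. Class I heavy chain genes are near-identical in parts, so a probe can also read signal from its relatives, and the 3.19 cannot be given to H2-K1 alone.

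**Figure D2:**
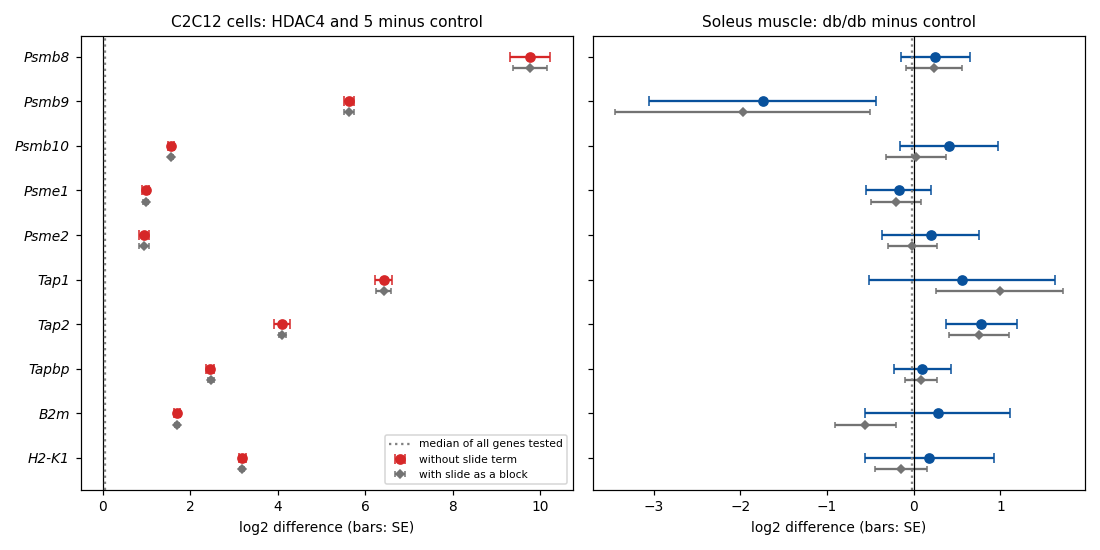
Log2 difference from control (horizontal axes) for the 10 genes in C2C12 cells (left) and soleus muscle (right), with bars for the SE. Circles leave slide out of the fit, diamonds include it as a block, and the dotted line is the median of all genes tested. In C2C12 cells the points run from 0.94 to 9.78 and the diamonds lie on or beside the circles, while in soleus muscle they lie on both sides of 0. The Tap1 point in C2C12 cells is the difference of measured means, with control not well above background.

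Each slide that had both groups measured gave a higher mean with HDAC4 and 5. Psmb8 gave 10.0, 8.57 and 10.7 on the 3 slides, Tap1 6.42, 6.19 and 6.65, H2-K1 3.24, 3.25 and 3.07, and B2m 1.71, 1.76 and 1.62. The brightest Tapbp probe gave 2.51 and 2.43, with no usable HDAC4 and 5 spot on the third slide. With slide as a block, the median over the members was 2.83.

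By position, the 4 genes with the largest differences, Psmb8, Tap1, Psmb9 and Tap2, form a cluster on chromosome 17, and their probes span 33.1 kb, chr17:34319174-34352309 on mm9. Tapbp and H2-K1 lie on the same chromosome, to the left of the cluster. Within 300 kb of the Tap1 probe the array held 52 probes of 34 gene names, of which 32 probes of 22 genes were well above background on all arrays of a C2C12 group. The 16 measured genes there that are not members had differences from -1.20 (Vps52, a vesicle tethering subunit) to 2.31 (H2-K2, a class I heavy chain gene), with a median over probes of 0.16. Brd2 and H2-DMa, the nearest measured genes on the left of the cluster, differed by 0.49 and 0.72. Their differences were smaller than those of the cluster. To the right of the cluster, no probe in the window was well above background on all arrays of a C2C12 group. The cluster can therefore be set beside measured neighbours on its left only. This window and the genes Vps52 and Brd2 were chosen after their values were seen.

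**Figure D3:**
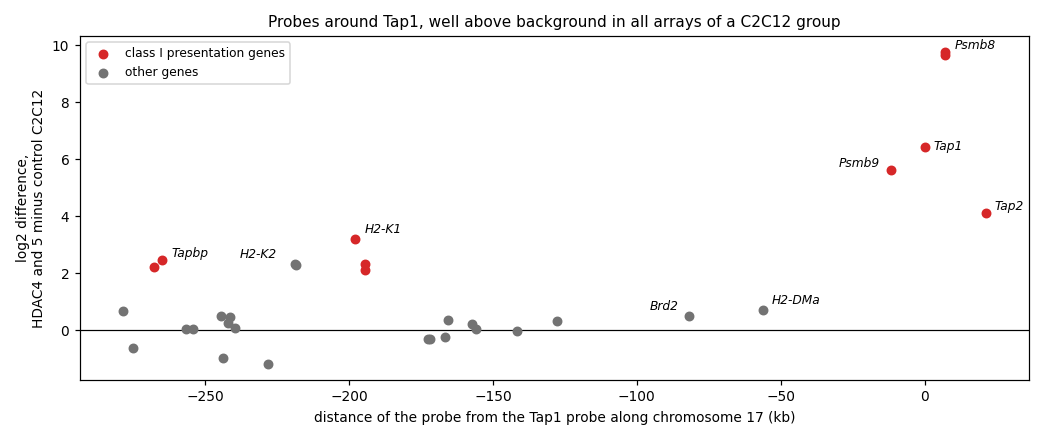
Log2 difference between HDAC4 and 5 and control C2C12 (vertical axis) for probes well above background on all arrays of a C2C12 group, against distance in kb from the Tap1 probe (horizontal axis). Red points are the class I presentation genes and grey points other genes. The cluster of Psmb9, Tap1, Psmb8 and Tap2 sits at 4.10 to 9.78, and the grey points between -1.20 and 2.31. The red points outside the cluster are H2-K1, up to 3.19, and Tapbp, up to 2.45.

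The rest of the pathway was read from lists of genes that are not members, drawn up by function but with earlier results of these arrays known. Of 63 such genes tested in C2C12 cells, 31 were higher and 11 lower with HDAC4 and 5 at a limma adjusted p of 0.05, beside 69.3% of all genes tested in either direction. Of 16 constitutive subunits and activators, 3 rose, 2 fell and 11 did not pass, with a median difference of 0.16. Psmb5 (0.06 ± 0.10, adjusted p = 0.57) and Psmb6 (0.26 ± 0.23, adjusted p = 0.32), the subunits that PSMB8 and PSMB9 replace, did not pass the test. Psmb7, which PSMB10 replaces, fell by 0.39 ± 0.06 (limma adjusted p = 2.0e-05) and Psma4, a structural subunit, fell by 0.37 ± 0.08. The 3 that rose were Psmb1 by 0.49 ± 0.05, Psma2 by 0.42 ± 0.13 and Psme3, the activator of the nuclear proteasome, by 0.20 ± 0.06. The Psmb6 probe was saturated on 5 of 6 arrays of each group, which limits what it can show, and the Psma2 probe on 1 of each.

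Of 11 peptide trimming and loading genes tested, 7 rose, 0 fell and 4 did not pass, with a median difference of 0.37. Erap1, the aminopeptidase that trims peptides to class I length, rose by 2.36 ± 0.10 (limma adjusted p = 1.1e-10). Tapbpl, a tapasin-related peptide editor, rose by 1.22 ± 0.06. Lnpep, an endosomal aminopeptidase, rose by 1.27 ± 0.08 at its brightest probe, while its other probe gave -0.33. Of the general chaperones, Calr rose by 0.31 ± 0.08, and Pdia3 differed by -0.29 ± 0.13 (adjusted p = 0.058). The brightest Canx probe had a usable spot on 1 C2C12 array and was not tested, and its other probes differed by 0.60 ± 0.08 and 0.09 ± 0.08.

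Of 14 other class I heavy chain genes tested, 12 rose, 1 fell and 1 did not pass, with a median difference of 1.91. H2-D1, another classical heavy chain, went from 4.52 to 6.33, a rise of 1.81 ± 0.10 (limma adjusted p = 3.5e-09) with 3 saturated HDAC4 and 5 arrays, and H2-T23, which presents signal peptides to natural killer cells, rose by 2.06 ± 0.09. The largest rises among the genes tested were those of Hfe, the iron-regulating class I-like gene, by 2.74 ± 0.07, H2-M3, which presents formylated peptides, by 2.42 ± 0.09, and H2-K2 by 2.31 ± 0.10. Fcgrt, the class I-like heavy chain of the neonatal Fc receptor, which also pairs with beta-2-microglobulin, fell by 1.79 ± 0.10 (limma adjusted p = 7.5e-10). Many of these genes share sequence with H2-K1 and with each other, apart from more distant ones such as Hfe and Fcgrt, so the counts are not of independent signals.

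Of 22 regulators tested, 9 rose, 8 fell and 5 did not pass, with a median of 0.13. Those that rose include transcription factors of the interferon response: Irf9 by 2.55 ± 0.07 (limma adjusted p = 4.5e-13) and Irf1 by 1.35 ± 0.07. Ifnb1, the gene of interferon beta, was not well above background on any control array and was on all 6 HDAC4 and 5 arrays, at least 3.8-fold higher (limma adjusted p = 2.7e-11). It entered the fit only through the group where it is high, and its p-value rests on control readings at background. Ifng was not well above background on any C2C12 array. Nlrc5, the class I transactivator, was not well above background on any control array and was on 5 of 6 HDAC4 and 5 arrays, with means of -6.83 and -4.04, and did not enter the test. Rfxap, a subunit of the factor that binds class I promoters with NLRC5, fell by 2.05 ± 0.08. Stat3 fell by 0.80 ± 0.08 and Ifnar1, a chain of the type I interferon receptor, by 0.56 ± 0.06.

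**Figure D4:**
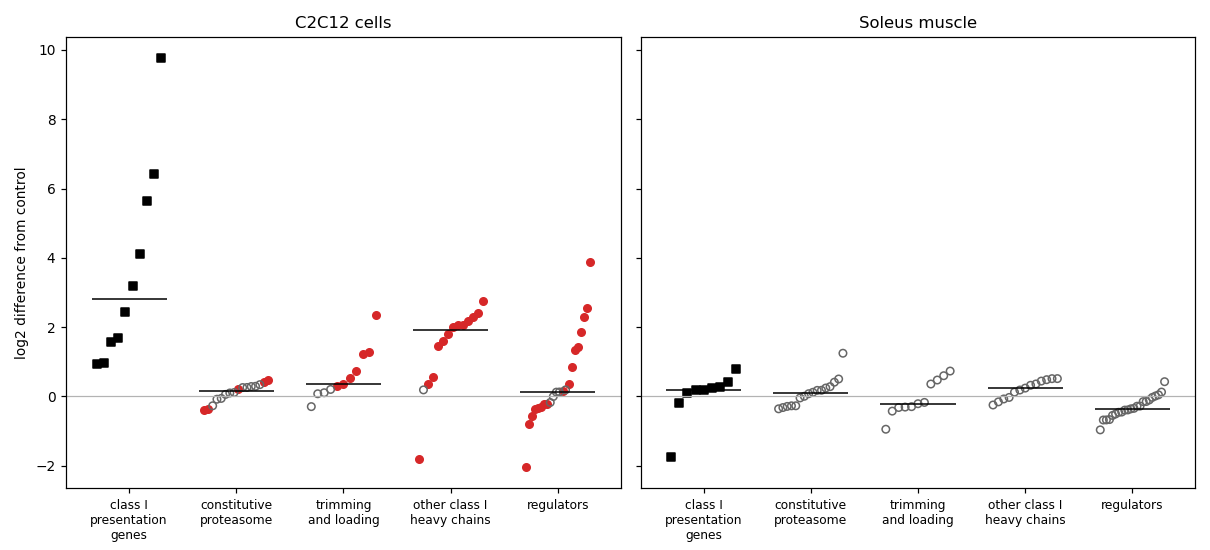
Log2 difference from control (vertical axis) of the class I presentation genes and 4 lists of other pathway genes (horizontal axis) in C2C12 cells (left) and soleus muscle (right), 1 point a gene, with a line at the median. Black squares are the class I presentation genes, shown with no test; red points of the other lists passed a limma adjusted p of 0.05 and open points did not. In C2C12 cells the medians are 2.82, 0.16, 0.37, 1.91 and 0.13 from left to right, and in soleus muscle no point of the other lists is red.

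Markers of other cell types were read beside these values. Of 14 leukocyte markers, 7 were not well above background on any control C2C12 array and 5 on any HDAC4 and 5 array, Ptprc (CD45), Csf1r and Itgam among them in both. Their summed level was 2.10 to 2.58 in control and 5.97 to 7.16 with HDAC4 and 5, in multiples of the 75th percentile. Cd14 rose by 1.63 ± 0.08 (limma adjusted p = 4.8e-10), Lyz2 was at least 4.2-fold higher at its brighter probe, its other probe being at background, and Cd68 fell by 0.42 ± 0.08. Of the MHC class II genes, H2-Ab1, H2-Aa, H2-DMb1 and Ciita were at background on all C2C12 arrays by their brightest probe, H2-DMa rose by 0.72 ± 0.07, and the invariant chain Cd74 rose by 1.06 ± 0.16 to a mean of -2.87. The fibroblast markers Col1a1, Pdgfra and Col3a1 rose by 3.34 ± 0.06, 2.17 ± 0.13 and 0.83 ± 0.09, and Dcn fell by 1.32 ± 0.07. The adipocyte marker Fabp4 rose by 2.14 ± 0.30, and none of the 6 endothelial markers could be tested. The part of a change in cell state or cell mixture in the class I values was not tested.

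In soleus muscle, the 2 groups overlapped for 9 of the 10 genes. Tap1 was left out of the fit, being well above background on 1 of the 7 arrays. Of the other 9 genes, 0 passed an adjusted p of 0.05 in limma, 0 passed an unadjusted p of 0.05 in limma or in the methods' t-test, and 0 passed an adjusted p with slide as a block. Over all 12888 genes tested in soleus muscle, 0.00776% passed the adjusted p and 0.31% did so with slide as a block, which is the background for these counts. At the unadjusted p, 815 of the 12888 passed in limma, so a count of 0 among 9 genes says little. The median difference of the 9 genes was 0.20, against -0.02 for all genes, and -0.02 with slide as a block. In bulk muscle, a different share of a cell type and a different RNA level per cell cannot be told apart.

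Psmb8 read 1.31, 0.76 and 1.20 in control and 1.61, 0.98, 1.89 and 0.87 in db/db soleus, a difference of 0.25 ± 0.39 with overlapping groups. Psmb9 read 0.70, 0.69 and 0.04 in control and 0.33, -5.61, 0.35 and -0.14 in db/db. The reading of -5.61 was the only one of the 7 not well above background, and it sets the difference of -1.74 ± 1.31, which was -0.30 without that reading. Psmb10 read 3.41, 4.06 and 4.85 in control and 3.74, 5.35 and 4.45 on the db/db arrays that were not marked as outliers, a difference of 0.41 ± 0.56. The groups overlapped for all 3 subunits.

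Psme1 read 4.24, 4.79 and 5.06 in control and 4.60, 4.49, 4.92 and 4.08 in db/db soleus, a difference of -0.17 ± 0.38. Psme2 read 4.89, 5.62 and 6.61 in control and 4.89, 5.68, 6.61 and 6.45 in db/db, a difference of 0.20 ± 0.56, with 1 saturated spot. The groups overlapped for both PA28 genes. Tap2 read -2.11, -3.31 and -2.20 in control and -1.45, -1.98, -1.71 and -1.92 in db/db, so that every db/db array lay above every control array, a difference of 0.78 ± 0.41. Across all genes tested, 4.97% had no overlap in that direction. One control reading of Tap2 was not well above background, and with the normexp background correction the difference was 0.16. Tapbp read 2.89, 3.07 and 3.25 in control and 3.39, 2.99, 3.07 and 3.22 in db/db, the narrowest spread of the 10, with a difference of 0.10 ± 0.33.

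B2m read 4.68 and 4.29 on the control arrays with a usable spot and 4.26, 3.60 and 6.42 in db/db, a difference of 0.27 ± 0.83. H2-K1 read 4.20, 4.56 and 6.07 in control and 4.50, 3.61, 6.50 and 5.89 in db/db, a difference of 0.18 ± 0.74. The reading of 6.50 is a mean over 10 spots, of which at least 1 was saturated. The 3 B2m probes gave differences from -0.46 to 0.27, and the 4 H2-K1 probes from 0.18 to 0.47. The high readings of both genes at the brightest probe were those of the second slide. Averaged over the groups, by the brightest probe, the arrays of slide 2 read higher than those of slide 1 by 1.91 for H2-K1, 1.30 for Psme2 and 1.14 for Psmb10, but by 0.11 for Tapbp and 0.13 for Psmb8. Tap1, mostly not well above background, gave -2.34. Other probes did not all follow. On slides 2 and 1, the dimmer Tapbp probe read -3.43 to -2.72 and -1.22 to 0.01. The H2-K1 probe at chr17:34136478-34136724 read 0.99 to 1.56 and 1.29 to 2.91, and that without coordinates 2.89 to 4.68 and 1.93 to 2.67. The other Psme2 probe read 5.01 and 5.01 to 5.37. The brightest B2m probe had a single usable spot on slide 2, of a db/db array, which lay 2.49 above the db/db mean of slide 1. With slide as a block the difference was -0.56 ± 0.35 for B2m, from slide 1 alone, and -0.15 ± 0.30 for H2-K1. By the brightest probes of H2-K1, Psme2 and Psmb10, the difference between slides was larger than that between groups.

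The summed level of the leukocyte markers also followed the slide, at 38.0 to 73.5 on slide 1 and 92.5 to 122 on slide 2, with both groups on each. Fibroblast markers summed to 366 to 428 in control and 98.3 to 334 in db/db soleus, and endothelial markers to 43.4 to 45.5 and 18.3 to 29.3, with 0 genes of either list past the limma adjusted p. The median difference over the fibroblast list was -0.07, so its lower sum does not describe the list as a whole. At an unadjusted p of 0.05, 4 of the 6 endothelial markers were lower in db/db soleus, with a median of -0.94 over the list, and 1 of the 5 fibroblast markers passed. Of all 12888 genes tested there, 815 passed it in either direction. Their part in the class I values of soleus muscle was not tested. Of the 62 other pathway genes tested in soleus muscle, 0 passed the adjusted p in limma, with or without the slide term, and 1 passed an unadjusted p of 0.05, Irf9, at -0.68 ± 0.35 (limma adjusted p = 0.785), while its other probe, at background, gave 0.59. The class II gene H2-Ab1 and the invariant chain Cd74 read 0.98 and 0.29 in control and 0.66 and -0.22 in db/db soleus.

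Set side by side over the 4 groups, by the brightest probe of each, all 10 genes had their highest mean in HDAC4 and 5 C2C12 and their lowest in control C2C12, with soleus muscle between. The other Psmb8 and Psme2 probes kept this order, but not all probes of H2-K1 and B2m did. The H2-K1 probe at chr17:34136288-34136347 read 2.17 to 2.51 in control C2C12 and 0.20 to 1.92 in soleus. One B2m probe read 1.01 to 2.10 in control C2C12 and -1.31 to 1.35 in soleus. For Psmb8, Tap1, Tap2 and Tapbp, all soleus arrays by the brightest probe lay between the highest control and the lowest HDAC4 and 5 C2C12 array. The Tap1 readings of soleus were mostly not well above background. The dimmer Tapbp probe read as low as -3.43 in soleus, below its range of -2.18 to -1.68 in control C2C12. The range of the soleus arrays overlapped with that of control C2C12 for Psmb9, Psmb10, Psme1, Psme2 and B2m. It overlapped with that of HDAC4 and 5 C2C12 for Psme2, B2m and H2-K1. For Psmb9 the overlap rests on the db/db reading of -5.61, not well above background. The other soleus readings of Psmb9 were -0.14 to 0.70, against -4.80 to -4.24 in control C2C12. The B2m overlaps rest on the db/db readings of 3.60 and 6.42. The 2 soleus groups, neighbours in this order, overlapped for 9 of the 10 genes, Tap2 being the exception. Cells and muscle were each scaled to their own arrays' 75th percentile, and no test was made between them.

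Within groups, the deviations of the members were compared with those of 10983 genes outside the lists in C2C12 cells and 9118 in soleus muscle. Over the 12 C2C12 arrays, the genes whose deviations followed the mean of the members most closely were Rnf25 (Pearson r of 0.94), Tsen15 (0.91), Tcn2 (0.90), Dhx37 (0.88) and Gdap2 (0.88). Over the 7 soleus arrays they were Il18bp, Rprd1a, Crip3, Tpp1 and Med24 (0.99 each), in arrays that share slide and depth. No gene was among the 5 in both data sets. The mean of the members was not scaled by gene, so it leaned on those with the largest spread. In control C2C12 that was Psmb8, near background, with an SD of 1.20 against a median of 0.18 over the members. In db/db soleus it was Psmb9, with its reading of -5.61, at 2.90 against 0.80. These genes therefore need not follow the members as a set.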

How the data were processed

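Total RNA of 12 C2C12 and 7 soleus samples (100 ng each) was labelled with Cy3 and read on one-colour Agilent arrays. The intensities used are processed signals that the authors deposited as scanner output, which the submitters' processing notes and the file headers credit to Agilent Feature Extraction 9.5.1.1, background-subtracted and detrended. The authors also deposited a matrix of ratios to 1 constant per array, made by a method not given in the sources used here. Its db/db columns did not follow the numbers of the scanner files, so it was used by group and as an alternative only.

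Control spots were left out, spots marked as outliers were left out of the values, and saturated spots were kept. The 75th percentile over all non-control spots was subtracted on the log2 scale, a choice made after seeing that outlier marks shift a percentile without them. The brightest probe by mean stood for a gene. Genes whose probe passed the scanner's background mark on each array of either group compared were tested with limma 3.58.1 in R 4.3.3 (Benjamini-Hochberg, 0.05), separately for cells and muscle. Counts and figures used Python 3.11.15. The steps were tested on simulated data. Gene names and mm9 coordinates are those of the files.

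The members and lists were chosen with earlier results of these data known. Genes named are the members, a set list of pathway genes, from each other list the 3 largest rises and falls past the adjusted p, and the 5 genes closest in pattern, apart from an item that is not reported here. Same-numbered arrays deviated together (correlations across genes of 0.18 to 0.55 in C2C12 and 0.42 to 0.69 in soleus), as did other arrays of the same slide (0.19 to 0.53 and 0.33 to 0.74). These ranges overlap, so they do not show that the number pairs arrays beyond the slide. The number was fitted as a block only among the alternatives. Those also varied scaling, background correction, filters, probes, spots, slides and arrays.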

Additional observations from a re-analysis of the deposited data

Results flagged for a closer look

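In db/db soleus, Psmb9 read -5.61 on replicate 2 and -0.14 to 0.35 on the other 3 arrays, and the gap to the nearest array was 0.92 of the group's range. The spot was not well above background there. Chance is expected to mark about 5% of groups in this way, and 28 groups were examined. Psmb9 lay above the control mean on every HDAC4 and 5 C2C12 array and below the control mean on every db/db soleus array. The soleus difference of -1.74 ± 1.31 (SE) rests on the low reading, being -0.30 without it, and the soleus groups overlap. The difference between cells and muscle was not tested.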

How the results depend on the processing

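The count of members past the adjusted p in C2C12 cells, which their choice fixes and which is no sign of stability, was 10 in most settings, 9 of 9 with the deposited matrix and 8 of 8 with the stricter filter, which removes Psmb8 and Tap1. The median difference of the members, 2.82, was 2.65 with normexp, 2.26 with the deposited matrix, 2.07 with the stricter filter, 2.18 with the mean of all probes, 2.26 with every probe a feature and 3.07 on slide 3 alone. The mean of all probes gave 1.54 for Tapbp, because only its dimmer probe remained on 2 arrays. With each array left out in turn the C2C12 median was 2.78 to 2.84 and the count stayed at 10. With the replicate number as a block, 10 members passed in C2C12 cells and 0 in soleus muscle, the medians were 2.83 and 0.02, and 45 other pathway genes passed against 42 without it. In soleus muscle 0 members passed in each setting run, and the median of 0.20 ranged from -0.09 to 0.39 with 1 array left out. Further settings were added after seeing the data: with the percentile taken without outlier spots the soleus median was 0.37, and without the low Psmb9 reading it stayed at 0.20. With the deposited matrix the median of all genes was -0.12 in C2C12 cells and 0.22 in soleus muscle, against 0.05 and -0.02, and the share of genes with a positive difference was 41.5% and 68.5%, against 53.3% and 48.3%. No C2C12 difference of a member changed sign. Signal near background limits the size given for Psmb8 and Tap1, and normexp also lowered Psmb9 to 4.13 and Tap2 to 3.15.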
